A study of Mus musculus with 10 samples.

Results

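Ribosome footprints in the neocortex at birth (P0) were compared with footprints in the neocortex at E15.5, in mid-gestation, to describe how the set of mRNAs occupied by ribosomes changed while newborn neurons matured. Both stages were sampled as tissue dissected from wild-type CD-1 mice, with no drug or genetic change in either group, and each library was made from a pool of brains of both sexes. The 4 libraries of the 2 stages, chosen by the stage in their labels, are 4 of the 10 libraries of the series, and 13484 of 22373 genes in the count table had at least 32 footprints summed over the 2 libraries of at least one stage and were tested. Ribosome profiling (Ribo-seq) sequences the mRNA fragments that ribosomes protect from nuclease. A footprint level therefore combines the amount of an mRNA with the number of ribosomes on it, and these were not separated here. In whole tissue, fewer cells of a type and fewer footprints per cell cannot be told apart.

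The E15.5 libraries held 31313156 and 22441862 counts, and the P0 libraries 7544404 and 35685736. The P0 replicates differed more from each other than those of the earlier stages. Over the 4559 genes whose mean count reached 500, the standard deviation of the log2 ratio between the 2 replicates was 0.524 at P0, against 0.124 at E15.5 and 0.131 at E17. P0 replicate 2 also held footprints of genes of the intestinal epithelium and the exocrine pancreas. A list of 24 such genes, among them Fabp2, Apoa4, Sis and Amy2a5, was written after this was seen. It summed to 241 CPM (counts scaled to a common depth with TMM factors) in P0 replicate 2 and to 0.435 CPM in P0 replicate 1. In the 4 libraries of E15.5 and E17 it lay between 0.331 and 0.633 CPM. By the rule of at least 1 CPM and at least 10 times the level of every other library of E15.5, E17 and P0, 179 genes stood out in P0 replicate 2, with 0.187% of its counts, and 1 gene in P0 replicate 1. None of the 179 was called changed by the main test below, limma-voom, although 28 had an unadjusted p under 0.05, edgeR called 25 and DESeq2 53. The rule chose genes whose P0 replicates differ at least 10 times, which widens the spread that the test uses. The absence of calls among them therefore does not show that calls of other genes are free of such footprints. Counts of calls in the gene lists are given with and without P0 replicate 2.

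The excitatory neurons of the neocortex arise from radial glia, which divide along the ventricle, and from intermediate progenitors, which carry the transcription factors Neurog2 and Eomes (Tbr2). At mid-neurogenesis many progenitors are still cycling and neurons of the upper layers are being born. Around birth most neurons have been born and migrate to their layers, extend axons and dendrites and begin to assemble synapses, while the remaining progenitors turn to making astrocytes and oligodendrocyte precursors. The dissected tissue carried the defining markers of the neocortex at both stages. Emx1 stood at 27.6 and 21.8 CPM at E15.5 and at 17.6 and 12.3 CPM at P0, and Neurod6 at 278 and 294 CPM against 162 and 227 CPM.

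Over the span from E15.5 to P0, 4587 of the 13484 genes (34.0%) were called changed, at an adjusted p under 0.05 by limma-voom with Benjamini-Hochberg adjustment and a log2 fold change of at least 0.32 in either direction. Of these, 2300 genes (17.1%) were higher at P0 and 2287 (17%) lower. A change of at least 2-fold was fitted for 1209 of the genes called higher and for 822 of those called lower. Both P0 libraries lay above both E15.5 libraries for 4244 genes (31.5%) and below them for 4372 (32.4%), so that 4568 of the 4587 called genes had groups that did not overlap. Without P0 replicate 2, 3034 genes were called higher and 2831 lower, with the single P0 library assumed to vary like the other stages. The test pooled the spread of all 5 stages, which is smaller than that between the P0 libraries. Calls were therefore also counted where 3 fits made them in the same direction, namely the fit above, a fit that weighted each library by its quality and a fit of the 4 libraries alone. These were 863 genes higher (6.40%) and 585 lower (4.34%), and they are named below as called in all 3 fits. When libraries were scaled by total counts without TMM factors, the median of all genes moved from -0.01 to 0.16 on the log2 scale, and 3187 genes were called higher and 1494 lower.

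**Figure D1:**
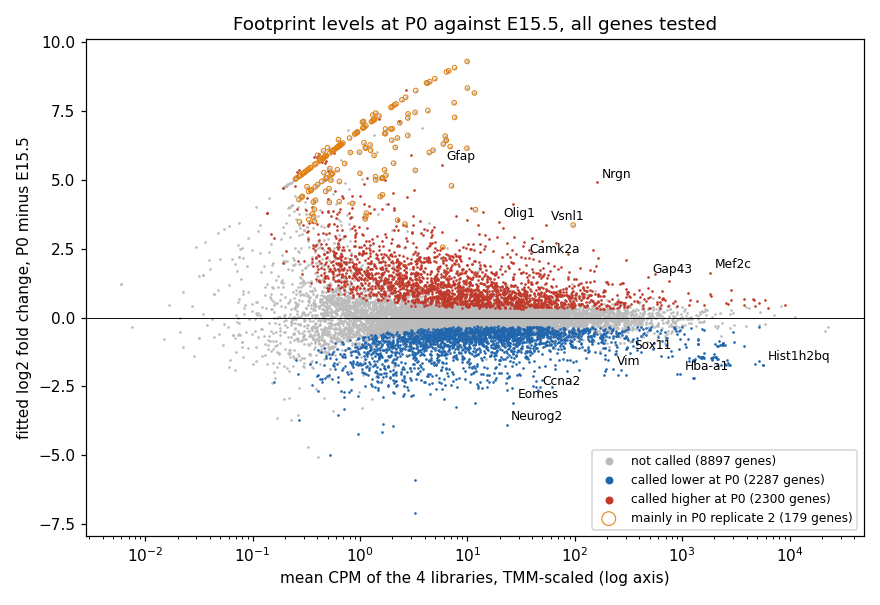
Fitted log2 fold change (P0 minus E15.5) of each gene tested against its mean CPM over the 4 libraries on a log axis, with called genes in red (higher) and blue (lower) and the 179 genes found mainly in P0 replicate 2 ringed in orange. The ringed genes, chosen by a rule that sets the 2 P0 replicates apart, form the upper edge at low levels, and none was called. Nrgn rises by 4.92 and Neurog2 lies at -3.89.

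The gene lists that describe cell types and functions moved apart. Lists of mitosis, intermediate progenitors and DNA replication had the lowest medians among the 32 lists with red cell genes, and those of oligodendrocyte precursors, astrocytes and neurotransmitter receptors the highest. The plot of list members shows that the members of the mitosis list lay close together, between -2.77 and -1.83 on the log2 scale, whereas the astrocyte list ranged from -0.19 to 5.56. The quartiles of all genes tested were -0.41 and 0.46. Counts of called members below stand beside 17.1% of all genes called higher and 17% called lower in the main fit. In all 3 fits these shares were 6.40% and 4.34%. Counts without P0 replicate 2 stand beside the larger totals of that fit given above.

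**Figure D2:**
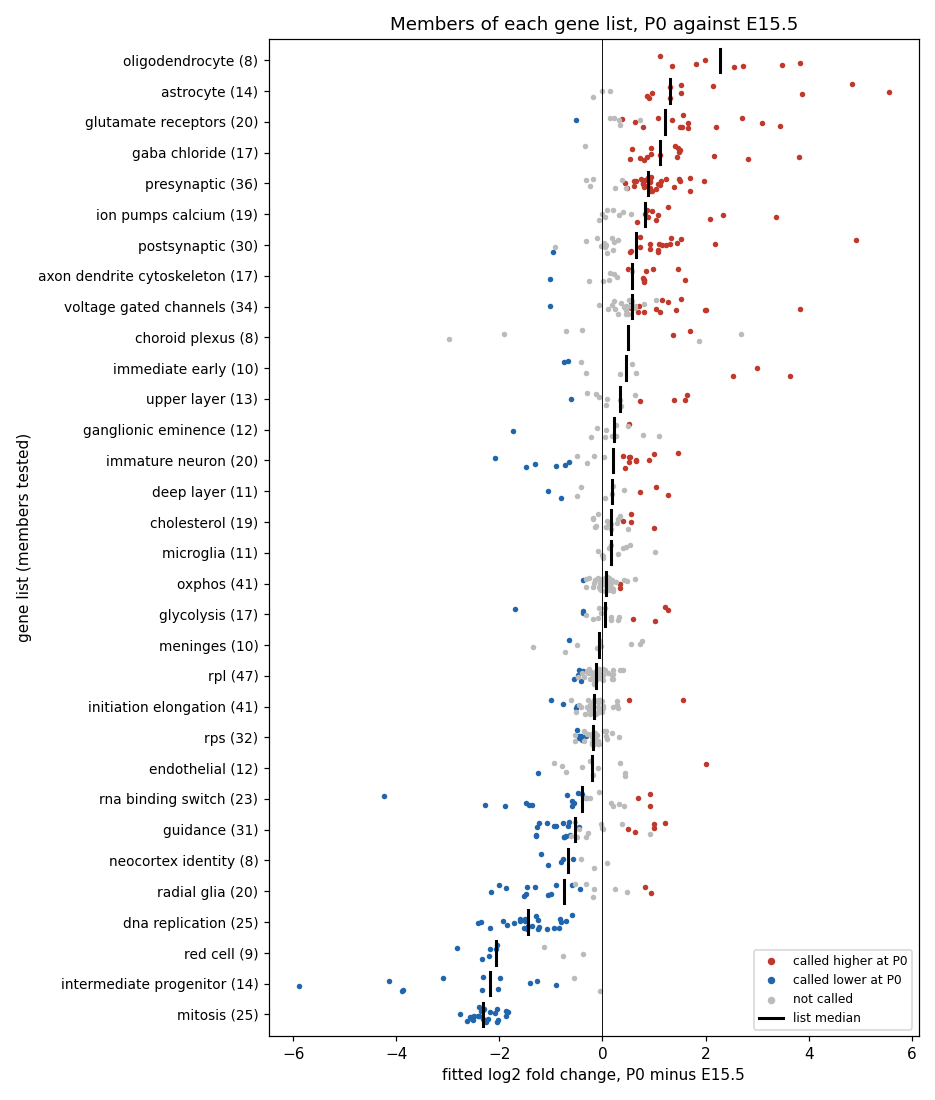
Fitted log2 fold change (P0 minus E15.5) of every tested member of 32 gene lists, ordered by the list median (black bar), with members called higher in red, called lower in blue and others in grey. The mitosis list is lowest, with a median of -2.33, and the oligodendrocyte list highest, with a median of 2.27.

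Genes of mitosis fell together. All 25 tested members of the list were called lower (against 17% of all genes tested), with a median of -2.33, and 21 of them in all 3 fits. With P0 replicate 2 left out, 23 were called lower. Ccna2 (ENSMUSG00000027715), the cyclin that drives S phase and entry into mitosis, stood at 77.9 and 77.7 CPM at E15.5 and at 12.6 and 12.6 CPM at P0. Its log2 fold change was -2.62 (SE 0.12, adjusted p = 3.05e-05). Cdk1, the kinase that cyclins activate at mitosis, went from 84.1 and 78.3 CPM to 17.9 and 16.4 CPM (-2.25, SE 0.11). Top2a, the topoisomerase that untangles sister chromatids, went from 21.7 and 22.1 CPM to 3.59 and 4.58 CPM (-2.35, SE 0.15). In each of these genes both P0 libraries lay far below both E15.5 libraries. The largest fall in the list was that of Bub1b, a kinase of the spindle checkpoint, from 4.55 and 4.48 CPM to 0.544 and 0.668 CPM (-2.77, SE 0.23). Kif15 (-2.77), Spc25 (-2.64) and Cdca3 (-2.61), a spindle motor, a kinetochore protein and a cell division factor outside the list, were among the 10 largest falls of well-counted genes. Mki67, the proliferation marker, was measured at only 1.75 and 1.65 CPM at E15.5 and at 0.326 and 0.477 CPM at P0. Its change of -1.87 (SE 0.28) was called (adjusted p = 0.00173), but not with quality weights (adjusted p = 0.0801).

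The promoters of these genes share short sequence elements, which are shown because the genes moved together. Promoter windows of 300 bases (250 before to 50 after a gene's start) were taken from RefSeq on build GRCm38.p6 for 10376 of the tested genes, 13415 windows in all. The cell cycle homology region (CHR, TTTGAA) and the CCAAT box were searched on both strands, and matches to the 2 can overlap at their ends. CHR was found in 77.3% of the 22 windows of the mitosis list and in 11.9% of all windows, and CCAAT in 81.8% and 37.9%. Both were present in 68.2% of the mitosis windows and in 4.91% of all. These genes were chosen after their values were seen: the 3 mitosis genes with the largest falls that hold both within 150 bases before the start are printed 5′ to 3′ on the gene's strand, with each match to CHR or CCAAT in either orientation in capitals. They lie at chr7:80294326-80294475, plus strand (Prc1, a protein that bundles spindle microtubules), chr2:164769779-164769928, plus strand (Ube2c, a ubiquitin-conjugating enzyme of the anaphase-promoting complex), and chr11:99024190-99024339, minus strand (Top2a).
Prc1: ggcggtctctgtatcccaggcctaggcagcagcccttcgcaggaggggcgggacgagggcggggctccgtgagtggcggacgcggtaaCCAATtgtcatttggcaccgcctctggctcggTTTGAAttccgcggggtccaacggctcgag
Ube2c: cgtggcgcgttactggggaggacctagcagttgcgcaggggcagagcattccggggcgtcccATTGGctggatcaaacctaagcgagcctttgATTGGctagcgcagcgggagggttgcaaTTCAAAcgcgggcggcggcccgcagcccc
Top2a: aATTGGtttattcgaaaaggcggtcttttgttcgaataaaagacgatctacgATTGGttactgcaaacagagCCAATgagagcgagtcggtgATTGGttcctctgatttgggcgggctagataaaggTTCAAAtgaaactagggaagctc

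In these windows the CHR match began 30, 29 and 23 bases before the start of Prc1, Ube2c and Top2a. The upstream CCAAT nearest to it began at 62, 57 and 58 bases. Footprints of Prc1 went from 70.3 and 80.3 CPM at E15.5 to 10.01 and 15.0 CPM at P0, and those of Ube2c from 111 and 98.3 CPM to 23.7 and 15.1 CPM. Over all genes called lower, 352 of 2264 windows held CHR, against 249 of the 2381 windows of genes called higher. A match of these letters is a description and shows no binding.

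Genes of DNA replication fell as completely in number but less in size. All 25 tested members were called lower, 18 of them in all 3 fits and 23 without P0 replicate 2, with a median of -1.44. Cdc6, which loads the replicative helicase on origins, fell most in the list, from 7.50 and 7.52 CPM to 1.31 and 1.41 CPM (-2.42, SE 0.23, adjusted p = 0.000234). Mcm2, a subunit of that helicase, went from 10.004 and 9.75 CPM to 2.72 and 2.74 CPM (-1.84, SE 0.15). The smallest change in the list was -0.59. Of all genes tested, 17% were called lower. The E2F element, searched on both strands as TTTGGCGC, TTTCGCGC, TTTCCCGC or TTTGCCGC, forms of which can overlap one another, was found in 36% of the 25 windows of this list, in 3.72% of all windows and in 4.55% of the mitosis windows. CHR was found in 12% of the replication windows. The 3 members with the largest falls that hold an E2F match within 150 bases before the start are Cdc6 (chr11:98908001-98908150, plus strand), Mcm5 (chr8:75109359-75109508, plus strand), another helicase subunit, and Pola1 (chrX:93632156-93632305, minus strand), the catalytic subunit of DNA polymerase alpha. Capitals mark the match.
Cdc6: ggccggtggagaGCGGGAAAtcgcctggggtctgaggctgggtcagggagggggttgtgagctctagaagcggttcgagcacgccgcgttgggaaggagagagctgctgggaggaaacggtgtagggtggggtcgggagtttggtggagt
Mcm5: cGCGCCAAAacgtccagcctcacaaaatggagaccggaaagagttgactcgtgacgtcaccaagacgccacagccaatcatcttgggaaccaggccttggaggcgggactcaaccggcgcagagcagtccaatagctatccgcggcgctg
Pola1: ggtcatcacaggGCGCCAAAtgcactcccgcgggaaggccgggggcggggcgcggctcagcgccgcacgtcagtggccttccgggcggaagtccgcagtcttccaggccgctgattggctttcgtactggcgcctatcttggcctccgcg

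The match began 138, 149 and 138 bases before the start in Cdc6, Mcm5 and Pola1. Mcm5 went from 41.7 and 37.6 CPM to 16.3 and 11.4 CPM (-1.60, SE 0.18). Pola1 was low, at 2.23 and 2.49 CPM against 0.435 and 0.907 CPM, and its call (-1.51, SE 0.25) was not made in all 3 fits. Histone genes, whose mRNAs accumulate in S phase, took 18.7% and 17.2% of all counts at E15.5 and 9.83% and 6.32% at P0. The 5 largest losses in CPM of any called gene were histone H2B genes. Hist1h2bq stood at 8847 and 8376 CPM at E15.5 and at 3149 and 2156 CPM at P0, a change of -1.72 (SE 0.18), and the other 4 (Hist1h2br, Hist1h2be, Hist1h2bp and Hist1h2bk) changed by -1.73 to -1.56. Histone genes have near-identical copies, so counts of single copies are uncertain: Hist1h2br had nearly the values of Hist1h2bq in every library.

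Intermediate progenitor genes fell in 12 of 14 tested members (against 17% of all genes tested), with none higher, a median of -2.17 and 9 in all 3 fits. Without P0 replicate 2, 9 were called lower. Neurog2 (ENSMUSG00000027967), the proneural factor that starts neuronal differentiation, had the largest fall of any well-counted gene. It stood at 46.7 and 39.3 CPM at E15.5, at 22.2 and 18.9 CPM at E17 and at 4.02 and 2.55 CPM at P0 (-3.89, SE 0.24, adjusted p = 3.89e-05). Eomes (ENSMUSG00000032446), the factor that defines these progenitors, went from 49.4 and 44.7 CPM to 7.61 and 4.73 CPM (-3.09, SE 0.20). The groups did not overlap in either gene, and E17 lay between. Nhlh1, a transcription factor of newborn neurons, changed by -5.89 (SE 0.85) in the fit, but its P0 libraries were unequal, at 0.870 and 0.0477 CPM against 7.26 and 4.73 CPM at E15.5. Tfap2c (-3.11), a transcription factor of cortical progenitors outside the list, went from 22.8 and 19.5 CPM to 2.28 and 2.48 CPM.

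Radial glial genes were mixed. Of 20 tested members, 12 were called lower, 2 higher and 6 were not called, with a median of -0.74. The shares of all genes tested were 17% lower and 17.1% higher. Lower calls in all 3 fits numbered 7, and without P0 replicate 2 the calls were 9 lower and 4 higher. Vim, the intermediate filament of radial glia, went from 358 and 351 CPM to 94.5 and 97.9 CPM (-1.88, SE 0.11). Pax6, the transcription factor of cortical progenitors, went from 92.9 and 81.7 CPM to 31.8 and 29.5 CPM (-1.52, SE 0.11), and Nes, the filament nestin, from 49.6 and 49.3 CPM to 19.5 and 20.4 CPM (-1.30, SE 0.11). The largest fall was that of Gli3, a transducer of hedgehog signals (-2.16, SE 0.22), and the hedgehog pathway genes Gli2 (-2.61) and Cdon (-2.97), outside the list, were among the 10 largest falls of well-counted genes. Sox2 stood at 30.9 and 28.0 CPM against 26.3 and 21.6 CPM (-0.33, SE 0.14, adjusted p = 0.0932). Hes5, a Notch target, gave 10.5 and 9.04 CPM against 17.2 and 9.04 CPM, so that its groups overlapped. Tnc, an extracellular matrix protein also made by later radial glia and astrocytes, rose from 6.81 and 7.22 CPM to 17.5 and 11.5 CPM (0.95, SE 0.20), a call not made in all 3 fits.

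Genes of young neurons did not move as one group. Of 20 tested members, 10 were called higher, 6 lower and 4 were not called, with a median of 0.21. Among all genes tested, 17.1% were called higher and 17% lower. When P0 replicate 2 was left out, the calls were 9 higher and 6 lower, and in all 3 fits 3 higher and 2 lower. Gap43, a growth cone protein, rose from 236 and 272 CPM through 398 and 464 CPM at E17 to 592 and 825 CPM (1.46, SE 0.17, adjusted p = 0.00052). Stmn2, a regulator of microtubules in growing axons, rose from 757 and 833 CPM to 1362 and 1627 CPM (0.90, SE 0.13). Sox11, a transcription factor of newborn neurons, fell from 476 and 454 CPM to 210 and 170 CPM (-1.30, SE 0.14), and Rnd2, a GTPase of migrating neurons under the control of Neurog2, fell from 26.4 and 22.4 CPM to 7.07 and 5.18 CPM (-2.08, SE 0.20). Dcx, the microtubule protein doublecortin, gave 1476 and 1543 CPM at E15.5 and 1120 and 1617 CPM at P0, and its groups overlapped. Tubb3, the neuronal tubulin, stood at 2196 and 2220 CPM against 3244 and 3038 CPM (0.51, SE 0.10). It was not called in the limma-voom fit of the 4 libraries alone (adjusted p = 0.0742).

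**Figure D3:**
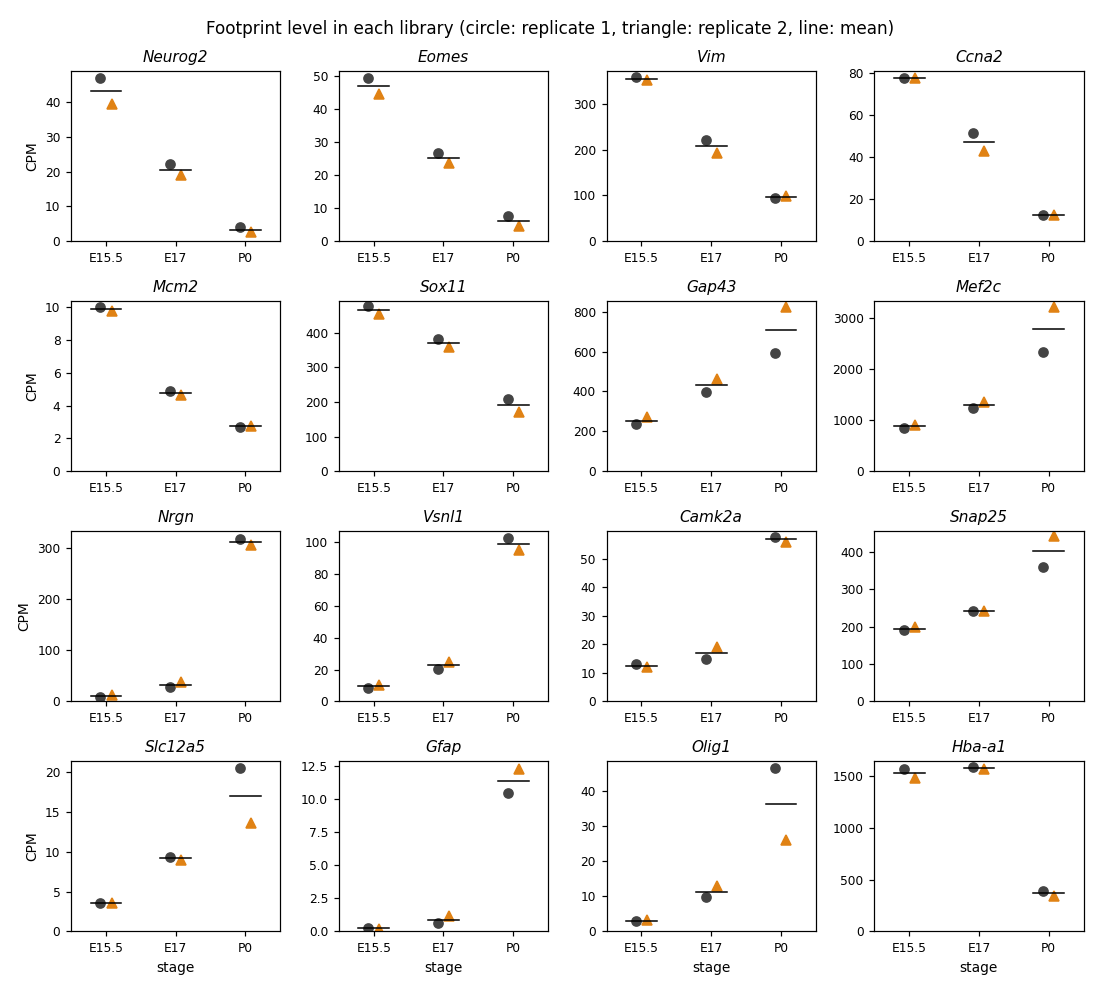
Footprint level (CPM, linear axes from 0) of 16 genes in each library of E15.5, E17 and P0, with replicate 1 as circles, replicate 2 as triangles and the mean as a line. Neurog2 falls from 46.7 and 39.3 CPM to 4.02 and 2.55 CPM, Nrgn stands at 27.9 and 37.4 CPM at E17 and reaches 318 and 306 CPM at P0, and Hba-a1 falls only after E17.

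The lists of genes that mark cortical layers, most but not all of them transcription factors, changed little as groups. In the deep-layer list, 3 of 11 tested members were called higher and 2 lower, with a median of 0.19, and the same numbers were called without P0 replicate 2. The shares of all genes tested were 17.1% higher and 17% lower. Ldb2, a cofactor expressed in subcortical projection neurons, rose from 67.1 and 67.9 CPM to 139 and 188 CPM (1.27, SE 0.15). Sox5 fell from 186 and 174 CPM to 80.3 and 92.8 CPM (-1.05, SE 0.11), and Fezf2, the selector of subcerebral neurons, from 28.0 and 27.6 CPM to 19.7 and 13.7 CPM (-0.81, SE 0.15). Calls in all 3 fits were 3 higher and 1 lower. Fezf2 was not called in the limma-voom fit of the 4 libraries alone (adjusted p = 0.0780). Bcl11b (73.2 and 62.8 CPM against 62.5 and 38.7 CPM) and Tbr1 (119 and 110 CPM against 103 and 74.0 CPM) were not called, with adjusted p of 0.0973 and 0.0880. In the upper-layer list, 4 of 13 were called higher and 1 lower, with a median of 0.33, and 7 higher and 1 lower without P0 replicate 2. Mef2c, a transcription factor of neuronal maturation and synapse number, rose from 853 and 910 CPM to 2337 and 3216 CPM (1.63, SE 0.16, adjusted p = 0.000242). Pou3f2 fell from 53.0 and 49.8 CPM to 36.4 and 31.6 CPM (-0.61, SE 0.11). This call was not made in the limma-voom fit of the 4 libraries alone (adjusted p = 0.0669). In all 3 fits, 2 upper-layer members were higher and 0 lower. Cux2 and Rorb had fitted changes of 0.33 and 0.36 and were not called.

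Genes of the presynaptic terminal rose broadly. Of 36 tested members, 30 were called higher (against 17.1% of all genes tested) and none lower, with a median of 0.88. Of these rises, 18 were called in all 3 fits, and 27 members were called higher without P0 replicate 2. The rises were moderate and shared by the parts of the release machinery. The SNARE proteins Snap25 and Vamp2, which fuse vesicles with the membrane, rose from 190 and 200 CPM to 360 and 444 CPM (1.04, SE 0.11) and from 212 and 213 CPM to 383 and 424 CPM (0.92, SE 0.09). Syn1, a protein of the vesicle surface, rose from 40.8 and 44.5 CPM to 84.7 and 79.0 CPM (0.94, SE 0.11). The calcium sensor Syt1 stood at 34.8 and 36.7 CPM at E15.5, at 68.6 and 67.8 CPM at E17 and at 45.6 and 63.0 CPM at P0 (0.61, SE 0.17, adjusted p = 0.0232), and it was not called in the fit of the 4 libraries alone (0.123). Sv2c had the largest fitted rise of the list (1.96, SE 0.44) at low levels, 0.271 and 0.296 CPM against 0.544 and 1.31 CPM. The vesicular glutamate transporters Slc17a7 (5.996 and 5.36 CPM against 10.2 and 6.80 CPM) and Slc17a6 (7.11 and 8.70 CPM against 6.20 and 6.23 CPM) were not called.

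Postsynaptic genes rose in 17 of 30 tested members and fell in 1, with 12 not called and a median of 0.65. Among all genes tested, 17.1% were called higher and 17% lower. Of these, 11 rises were called in all 3 fits, and without P0 replicate 2 the calls were 17 higher and 3 lower. Nrgn (ENSMUSG00000053310), which encodes neurogranin, a calmodulin-binding protein of dendritic spines, had the largest fitted rise of the well-counted genes (mean count of 100 or more) after the astrocyte gene Gfap. It stood at 8.65 and 12.54 CPM at E15.5, at 27.9 and 37.4 CPM at E17 and at 318 and 306 CPM at P0, a log2 change of 4.92 (SE 0.19, adjusted p = 2.45e-05). The kinase subunits Camk2a and Camk2b, central to synaptic plasticity, rose from 13.02 and 11.9 CPM to 57.4 and 55.9 CPM (2.18, SE 0.16) and from 403 and 461 CPM to 1154 and 1012 CPM (1.33, SE 0.12). The 2 P0 libraries lay close together for Nrgn and Camk2a, and far above E15.5. Dlg4, the scaffold PSD-95, rose from 35.2 and 34.7 CPM to 62.2 and 55.1 CPM (0.73, SE 0.11). Homer3 was the only member called lower, from 35.3 and 33.0 CPM to 22.5 and 14.8 CPM (-0.96, SE 0.18). It was not called in the limma-voom fit of the 4 libraries alone (adjusted p = 0.0680). Frmpd4, a protein that binds PSD-95, was outside the list but among the 10 largest rises, at 0.572 and 0.633 CPM against 5.87 and 7.52 CPM (3.50, SE 0.27).

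Of the glutamate receptor genes, 14 of 20 tested were called higher and 1 lower (17.1% and 17% of all genes tested), with a median of 1.21. In all 3 fits 6 were higher, and without P0 replicate 2 11 were higher. NMDA receptor subunits rose: Grin2b from 17.6 and 16.4 CPM to 39.2 and 23.5 CPM (0.78, SE 0.21) and Grin2a from 0.241 and 0.253 CPM to 0.653 and 0.740 CPM (1.498, SE 0.46). Grin2a remained scarce, and neither call was made in all 3 fits. With the replicate block, Grin2a (adjusted p = 0.0662) and Grik3 (adjusted p = 0.0707) were not called. The AMPA receptor subunit Gria1 gave 18.3 and 17.1 CPM against 18.8 and 22.1 CPM and was not called. Gria2 was called (0.38, SE 0.12, adjusted p = 0.0451), but not with the replicate block (adjusted p = 0.0684), with quality weights (adjusted p = 0.207), in the 4 libraries alone (adjusted p = 0.203) or without P0 replicate 2 (adjusted p = 0.195), and it was higher at E17 (40.1 and 37.1 CPM) than at P0 (22.8 and 27.8 CPM). The metabotropic receptor Grm8 was called higher from 2 and 1 counts at E15.5 to 4 and 34 counts at P0, too few for a measure of size. The kainate receptor Grik3 was the only member called lower (-0.51, SE 0.16), which was not called without P0 replicate 2.

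The list of GABA signalling and chloride transport had 16 of 17 tested members called higher and none lower, with a median of 1.13, and 9 in all 3 fits. The share of all genes tested called higher was 17.1%. Without P0 replicate 2, 13 were called. Slc12a5, the chloride exporter KCC2 that makes GABA inhibitory, rose from 3.62 and 3.50 CPM at E15.5 to 9.30 and 9.01 CPM at E17 and to 20.6 and 13.6 CPM at P0 (2.16, SE 0.29, adjusted p = 0.00101). Slc12a2, the chloride importer NKCC1, was the member not called, at 2.50 and 2.53 CPM against 2.07 and 1.96 CPM (-0.34, SE 0.19). The receptor subunit Gabrg1 had the largest fitted rise of the list (3.81, SE 0.60), from 0.121 and 0.0845 CPM to 1.09 and 1.86 CPM.

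Voltage-gated channel genes were called higher in 14 of 34 tested members and lower in 1, with a median of 0.56. Of all genes tested, 17.1% were called higher and 17% lower, and 6.40% were higher in all 3 fits. Only 4 rises were called in all 3 fits, and 22 were called without P0 replicate 2. The fitted change was above 0 in 32 of the 34. The sodium channel Scn2a rose from 4.10 and 4.77 CPM to 9.37 and 9.27 CPM by E17 and stood at 9.68 and 9.38 CPM at P0 (1.11, SE 0.12). Kcnq3, a potassium channel of the M current, was the only member called lower, from 1.96 and 1.65 CPM to 1.20 and 0.835 CPM (-1.02, SE 0.22), and it was not called with quality weights (adjusted p = 0.141). Kcnh1, another potassium channel, was called higher from 3 and 0 counts at E15.5 to 9 and 29 counts at P0. Among ion pumps and calcium sensors, 11 of 19 were called higher and none lower, with a median of 0.83, 7 in all 3 fits and 9 higher and 1 lower without P0 replicate 2. Vsnl1 (ENSMUSG00000054459), the neuronal calcium sensor visinin-like 1, rose from 8.68 and 10.6 CPM through 20.6 and 24.7 CPM at E17 to 103 and 95.4 CPM (3.37, SE 0.14, adjusted p = 2.45e-05).

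Cytoskeletal genes of axons and dendrites were called higher in 9 of 17 members and lower in 1, with a median of 0.58, 6 rises in all 3 fits and 11 higher and 2 lower without P0 replicate 2. The main fit called 17.1% of all genes tested higher and 17% lower. Nefl, the neurofilament light chain, rose from 7.86 and 9.29 CPM to 23.6 and 27.7 CPM (1.61, SE 0.14), and Mapt, the axonal protein tau, from 1252 and 1358 CPM to 2174 and 2527 CPM (0.84, SE 0.11). Map2, the dendritic counterpart, stood at 1381 and 1438 CPM against 1505 and 1813 CPM and was not called (0.23, SE 0.11, adjusted p = 0.147). Kif21a, a kinesin, fell from 46.6 and 50.7 CPM to 18.8 and 28.2 CPM (-1.03, SE 0.17). It was not called in the limma-voom fit of the 4 libraries alone (adjusted p = 0.0535). In CPM, the largest gains of any called genes were those of Actg1, the cytoplasmic gamma actin, from 7661 and 7621 CPM to 10699 and 10510 CPM, and of the alpha tubulins Tuba1a (4685 and 4438 CPM against 8429 and 6028 CPM), Tuba1b and Tuba1c. The alpha tubulin genes are near-identical, and multi-mapping reads were kept, so single genes are uncertain. None of these 4 calls was made in the fit of the 4 libraries alone. Mllt11, a protein of neuronal differentiation, gained from 1890 and 1805 CPM to 4765 and 2828 CPM (1.00, SE 0.20). Its call was also lost in the limma-voom fit of the 4 libraries alone (adjusted p = 0.0851).

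Of 10 immediate early genes tested, which neuronal activity induces, 3 were called higher (17.1% of all genes) and 2 lower (17% of all genes), so that the lower share was near that of all genes. The 2 lower calls were not made without P0 replicate 2, with quality weights or in the 4 libraries alone, and the 3 higher calls were made without P0 replicate 2. Fos rose from 0.121 and 0.169 CPM to 0.870 and 0.883 CPM (2.52, SE 0.49) and Egr3 from 0.241 and 0 CPM to 2.18 and 0.907 CPM (3.64, SE 1.12). The third gene called higher was Egr1, from 0.874 and 0.633 CPM to 8.59 and 5.37 CPM (3.01, SE 0.40). Arc, which acts at synapses, was not called, at 1.42 and 1.73 CPM against 0.870 and 1.22 CPM. Dusp1, a phosphatase, was called lower (-0.75, SE 0.17). Egr3 was not called in the fit of the 4 libraries alone (adjusted p = 0.153).

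The 2 lists of glial markers had the highest medians. Of all genes tested, 17.1% were called higher and 17% lower. All 8 tested oligodendrocyte lineage genes were called higher, 7 of them in all 3 fits and 8 without P0 replicate 2, with a median of 2.27. Olig1, a transcription factor of the lineage, stood at 2.83 and 3.12 CPM at E15.5, at 9.72 and 12.8 CPM at E17 and at 46.3 and 26.0 CPM at P0 (3.49, SE 0.31). Pdgfra, the growth factor receptor of precursors, rose from 2.23 and 2.74 CPM to 7.61 and 9.14 CPM (1.80, SE 0.18), and Gpr17, of committed precursors, from 0.0301 and 0.169 CPM to 1.20 and 1.17 CPM (3.83, SE 0.61). Of 14 astrocyte genes, 11 were called higher and none lower, with a median of 1.31, and 7 in all 3 fits. If P0 replicate 2 was omitted, 11 were higher and 1 lower. Gfap (ENSMUSG00000020932), the filament of astrocytes, had the largest fitted rise of all well-counted genes. Its 8 and 5 counts at E15.5 became 96 and 514 counts at P0, or 0.241 and 0.211 CPM against 10.4 and 12.3 CPM (5.56, SE 0.49, adjusted p = 0.000166). Aqp4, the water channel of astrocyte endfeet, rose from 0.0301 and 0.127 CPM to 2.07 and 2.15 CPM (4.84, SE 0.62). Slc1a2, the glutamate transporter GLT-1, rose from 9.67 and 9.08 CPM to 28.4 and 20.1 CPM (1.31, SE 0.16).

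Markers of other cell types in the tissue moved in some lists. Their counts are to be read beside the 17.1% of all genes tested called higher and the 17% called lower. Red cell genes fell in 6 of 9 tested members (5 without P0 replicate 2), with none higher and a median of -2.06, and the list summed to 7422 and 6906 CPM at E15.5, 7260 and 7253 CPM at E17 and 1862 and 1439 CPM at P0. Hba-a1, an alpha globin with a near-identical copy, stood at 1575 and 1487 CPM against 394 and 341 CPM (-2.06, SE 0.11), and Alas2, the heme enzyme of red cells, changed by -2.82 (SE 0.20). Microglial genes had no call among 11 by limma-voom (2 had p under 0.05 before adjustment, and edgeR called 1 and DESeq2 0), and 2 were called higher without P0 replicate 2, with summed levels of 29.0 and 21.999 CPM at E15.5 and 31.8 and 27.4 CPM at P0. Endothelial genes had 1 member higher (Ly6c1) and 1 lower (Slc2a1) of 12, the same numbers as without P0 replicate 2, and summed to 31.4 and 29.2 CPM against 33.3 and 29.0 CPM. Meningeal genes had 1 lower (Igf2) of 10 and 0 without P0 replicate 2, at 29.3 and 30.5 CPM against 26.5 and 17.3 CPM in sum. Ganglionic eminence genes had 1 higher (Dlx2) and 1 lower (Ebf1) of 12, at 149 and 147 CPM against 192 and 156 CPM in sum. These calls depended on the fit: 4 were higher and 0 lower without P0 replicate 2, 4 were higher under total-count scaling, and neither Dlx2 nor Ebf1 was called with quality weights (adjusted p = 0.112 and 0.157) or in the 4 libraries alone (adjusted p = 0.109 and 0.0553). Choroid plexus genes had 2 higher of 8 and 1 without P0 replicate 2, at 15.0 and 12.03 CPM against 17.7 and 12.03 CPM in sum, and Kcnj13, a defining marker, was listed at 0 in both P0 libraries. The list of neocortical identity fell in 5 of 8 members (4 without P0 replicate 2), with a median of -0.67 and none higher, led by Lhx2 (79.8 and 82.1 CPM against 40.1 and 31.9 CPM). The part of these cell types in the other results was not tested.

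RNA-binding proteins that regulate splicing and mRNA stability fell more often than they rose. Of 23 tested, 13 were called lower and 3 higher (17% and 17.1% of all genes tested), with a median of -0.41. In all 3 fits, 6 were lower and 3 higher. Without P0 replicate 2, 14 were lower and 4 higher. Ptbp1, the splicing repressor of progenitors, fell from 190 and 178 CPM to 79.0 and 56.9 CPM (-1.48, SE 0.17). Igf2bp1, an mRNA-binding protein of fetal growth, fell from 4.58 and 3.67 CPM to 0.761 and 0.859 CPM (-2.27, SE 0.23). Rbfox3, the neuronal splicing factor NeuN, rose from 44.0 and 44.2 CPM to 80.2 and 86.2 CPM (0.92, SE 0.09). Hmga2, a chromatin protein of fetal progenitors, had the largest fitted fall (-4.23, SE 1.35) at low and unequal levels, 2.59 and 0.887 CPM against 0.326 and 0.0477 CPM, and was not called in all 3 fits. Lin28a and Lin28b did not reach the count needed for the test.

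Axon guidance genes were called lower in 15 of 31 tested members and higher in 5, with a median of -0.53. For comparison, the main fit called 17% of all genes tested lower and 17.1% higher. All 3 fits called 4.34% lower and 6.40% higher. Without P0 replicate 2, more of all genes were called in both directions than in the main fit. Calls in all 3 fits were 4 lower and 1 higher, and calls without P0 replicate 2 were 8 lower and 6 higher. Efnb1, an ephrin of the membrane, fell from 12.6 and 10.7 CPM to 5.55 and 4.44 CPM (-1.29, SE 0.19), and Nrp1, the neuropilin that binds semaphorins, from 9.13 and 8.19 CPM to 4.02 and 3.39 CPM (-1.28, SE 0.16). Efna5, an ephrin that guides thalamic axons, rose from 3.34 and 4.18 CPM to 7.94 and 8.997 CPM (1.22, SE 0.16).

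Ribosomal protein genes changed little. Of 47 genes of the large subunit, 5 were called lower and none higher, with a median of -0.14, and of 32 genes of the small subunit, 6 lower and none higher, with a median of -0.19. Over all genes tested, 17% were called lower and 17.1% higher in the main fit, and more in both directions without P0 replicate 2. None of these 11 ribosomal protein genes was called in all 3 fits. Under total-count scaling the medians were 0.04 and -0.01, so that the large-subunit median changed sign. Without P0 replicate 2 the calls were 13 lower and 5 higher for the large subunit and 15 lower and 3 higher for the small. Many ribosomal proteins have pseudogene copies that could share reads. Rps12 had 132 and 128 CPM against 91.4 and 91.8 CPM (-0.50, SE 0.09), and Rpl7 had 312 and 318 CPM against 182 and 254 CPM (-0.54, SE 0.15). Among 41 initiation and elongation factors, 2 were called higher and 4 lower, with a median of -0.16 that was 0.02 under total-count scaling, and without P0 replicate 2 the calls were 2 higher and 19 lower. Eef1a2, the elongation factor of mature neurons and muscle, rose from 28.7 and 28.9 CPM through 40.6 and 42.1 CPM to 81.6 and 88.0 CPM (1.56, SE 0.09, adjusted p = 3.11e-05). Eif4ebp2, a repressor of cap-dependent initiation in the brain, fell from 77.9 and 82.8 CPM to 40.6 and 39.4 CPM (-1.01, SE 0.11).

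Of 17 glycolytic genes, 4 were called higher and 3 lower, with a median of 0.04 (6 and 4 without P0 replicate 2), near the shares of all genes called higher (17.1%) and lower (17%). Eno2, the neuronal enolase, rose from 110 and 117 CPM to 324 and 234 CPM (1.27, SE 0.16), and Hk2, the hexokinase of proliferating cells, fell from 5.03 and 4.60 CPM to 1.52 and 1.46 CPM (-1.70, SE 0.20). Of 41 genes of oxidative phosphorylation, 2 were called higher and 1 lower, with a median of 0.07 (7 and 3 without P0 replicate 2). Atp5a1, a subunit of the ATP synthase, had 572 and 533 CPM against 702 and 691 CPM (0.34, SE 0.09). Of 19 genes of cholesterol synthesis and uptake, 4 were called higher and none lower, with a median of 0.17 and none in all 3 fits (6 and 0 without P0 replicate 2). These counts stand beside 17.1% of all genes tested called higher and 17% called lower. Hmgcs1, the synthase that supplies the cholesterol pathway's substrate, had 147 and 162 CPM against 175 and 269 CPM and was not called (0.50, SE 0.19, adjusted p = 0.0754).

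A set of 23 gene pairs joined an isoform or relative known from progenitors or young neurons with one known from mature neurons. The second member was called higher in 14 pairs and lower in 2, and the first member lower in 6 and higher in 8. The shares of all genes tested were 17.1% higher and 17% lower. In 19 of the 23 pairs the fitted change of the second member exceeded that of the first, and the difference itself was not tested. In 2 pairs the first was called lower and the second higher, and these had nearly equal gaps, the widest of the 23. They were Cdk1 (-2.25) with Cdk5 (0.46), the neuronal kinase that does not drive the cell cycle, and Hk2 (-1.70) with Hk1 (1.01), the hexokinase of the adult brain, which stood at 73.2 and 74.4 CPM against 146 and 151 CPM. The Cdk5 call was not made with quality weights (adjusted p = 0.0516) or in the 4 libraries alone (adjusted p = 0.160), and its change was 0.30 without P0 replicate 1. The chromatin remodelling subunits Actl6a (52.4 and 50.2 CPM against 13.1 and 15.54 CPM) and Ss18 (31.6 and 28.9 CPM against 8.48 and 11.4 CPM), which progenitors use, fell by 1.82 and 1.56 on the log2 scale. Their neuronal counterparts Actl6b (0.10) and Ss18l1 (0.18) were not called. Eef1a1 gave 1482 and 1482 CPM against 1073 and 1360 CPM and was not called, beside the rise of Eef1a2. In 4 pairs the order was the other way: Rab3b (1.79) and Rab3a (0.43), Map4 (0.87) and Map2 (0.23), Syt4 (1.13) and Syt1 (0.61), and Ldha (0.30) and Ldhb (-0.37).

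**Figure D4:**
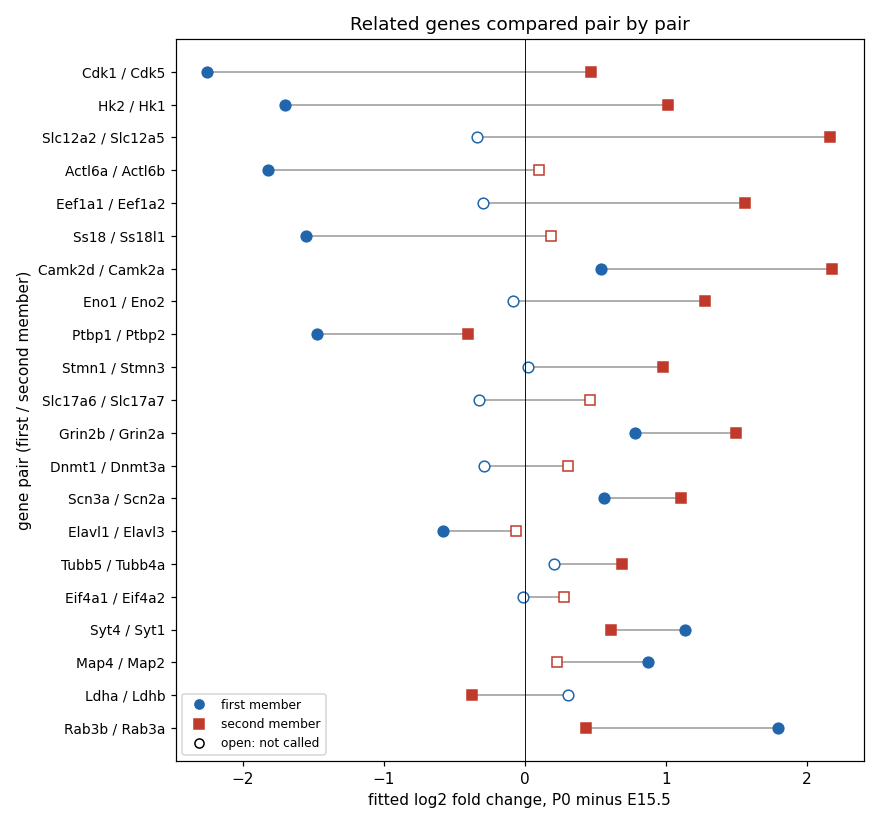
Fitted log2 fold change (P0 minus E15.5) of both members of 21 of the 23 pairs of related genes, with the first member as a blue circle and the second as a red square, filled where called. In 17 of these pairs the square lies to the right of the circle, most widely for Cdk1 with Cdk5 and for Hk2 with Hk1.

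The E17 libraries lie between the 2 stages and divide the span into the steps E15.5 to E17 and E17 to P0. The difference between the steps was tested in the same fit without a fold threshold. The steps were not scaled by their length in days, and the labels give no embryonic day for birth. A larger change in one step is therefore not a faster change. It was called for 343 genes, of which 26 (0.193%) changed more positively and 317 (2.35%) more negatively in the later step. For 270 genes with a negative difference, both E17 libraries lay above all 4 others. The count depended strongly on the libraries fitted. It was 0 in a fit of the E15.5, E17 and P0 libraries alone by limma-voom (2066 genes at an unadjusted p under 0.05), 242 with edgeR, 1967 without P0 replicate 1 and 1675 without P0 replicate 2. The fitted list medians show where in the span a group moved. Mitosis genes had medians of -0.83 in the first step and -1.51 in the second, intermediate progenitor genes of -0.62 and -1.57, and replication genes of -0.65 in each. Glutamate receptor, GABA and voltage-gated channel genes had medians of 0.99, 0.97 and 0.78 in the first step and of 0.15, 0.16 and -0.02 in the second. The presynaptic list was spread over both (0.33 and 0.43). Red cell genes had -0.06 and -2.10. These comparisons of steps by list medians were not tested.

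**Figure D5:**
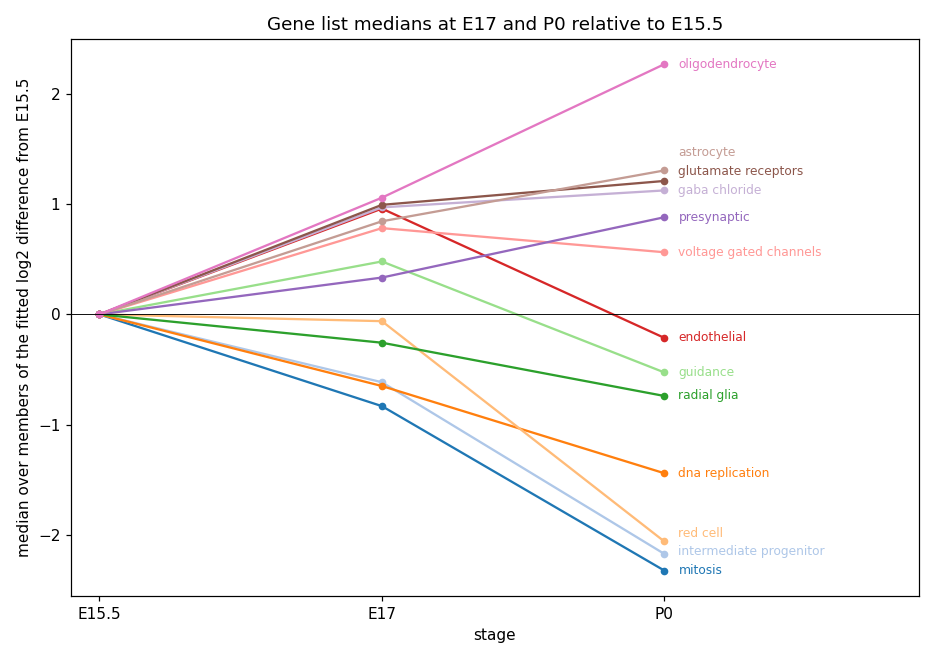
Median over list members of the fitted log2 difference from E15.5, at E15.5 (0 by definition), E17 and P0, for 13 gene lists. Receptor and channel lists reach most of their level by E17, while the endothelial and guidance lists stand at 0.96 and 0.48 at E17 and at -0.21 and -0.53 at P0.

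Among the genes with the strongest step differences, some rose late and others dipped at E17. Fam107a, an actin-associated protein of radial glia and astrocytes, stood at 0.814 and 0.887 CPM at E15.5, at 0.984 and 0.788 CPM at E17 and at 6.85 and 8.16 CPM at P0, and its step difference was 3.01 (SE 0.42, adjusted p = 0.0224). Glul, glutamine synthetase, gave 59.5 and 59.3 CPM, then 56.5 and 60.0 CPM, then 106 and 106 CPM. Nrgn and Camk2a also changed more in the later step, with step differences of 1.63 and 1.33 and adjusted p of 0.0417 and 0.0482. Calls of positive differences depended on the fit: 26 here, 26 with quality weights and 14 with edgeR. They numbered 0 with the replicate block and 0 in the fit of the E15.5, E17 and P0 libraries alone. A positive difference was not always a late rise. Txnip, an inhibitor of thioredoxin, stood at 54.9 and 52.1 CPM, at 27.3 and 32.9 CPM and at 49.7 and 43.5 CPM (step difference 1.46, adjusted p = 0.029). Clasrp, a splicing-related protein, stood at 18.8 and 17.4 CPM, at 12.2 and 10.8 CPM and at 14.9 and 16.1 CPM (step difference 1.10, adjusted p = 0.0372). Neither was called over the span. In the other direction, Nts, the peptide neurotensin, rose from 9.61 and 9.42 CPM to 52.6 and 65.3 CPM by E17 and stood at 48.4 and 47.1 CPM at P0. Slco1c1, a thyroid hormone transporter, stood at 7.59 and 8.40 CPM, at 25.6 and 26.1 CPM and at 9.46 and 10.5 CPM, so that E15.5 and P0 were close (0.34, SE 0.13) with a peak at E17. Nrp1 likewise stood at 14.4 and 12.4 CPM at E17, above both other stages. Endothelial markers, whose list holds Slco1c1, summed to 65.4 and 71.9 CPM at E17 and meningeal markers to 60.2 and 54.0 CPM, above both other stages as well, and their part in these values was not tested. Hba-a1 had a negative difference of another shape (adjusted p = 0.012): it stood at 1575 and 1487 CPM at E15.5, at 1587 and 1571 CPM at E17 and at 394 and 341 CPM at P0.

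The 10 largest rises of well-counted genes also held Grp, Nwd2, Gda, Cobl and Lgals3. Grp, the gastrin-releasing peptide, rose from 2.53 and 2.36 CPM to 74.4 and 28.1 CPM (4.13, SE 0.50), and the 2 P0 libraries were far apart. Nwd2, a gene of little known function, rose from 0.994 and 1.73 CPM to 20.6 and 19.6 CPM (3.97, SE 0.32), Gda, the guanine deaminase of postsynaptic sites, from 2.02 and 1.60 CPM to 23.2 and 29.4 CPM (3.85, SE 0.53) and Cobl, an actin nucleator of dendrites, from 1.51 and 1.69 CPM to 17.2 and 19.6 CPM (3.54, SE 0.27). Lgals3, a galectin of macrophages and of the intestinal epithelium, stood at 0.542 and 0.633 CPM against 3.05 and 8.35 CPM (3.37, SE 0.98). The higher of its P0 values came from the library with the intestinal genes, whose part in this value was not tested. Mfap4, a protein of extracellular microfibrils, completed the 10 largest falls, from 14.9 and 12.96 CPM to 2.50 and 1.24 CPM (-3.26, SE 0.30).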

How the data were processed

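Neocortex was dissected from timed CD-1 litters at 5 stages, and 2 libraries were made per stage. Each replicate is a pool, and p-values measure the spread between pools. Per the study's methods, the authors digested lysates with RNases T1 and A without cycloheximide, isolated monosomes, removed duplicate reads and contaminant RNA, and aligned footprints to GENCODE M12 coding transcripts with STAR, keeping multi-mapping reads. The labels give STAR version 2.7.0, and the methods name a different version. Near-identical genes are therefore uncertain. The deposited values are whole-number footprint counts per gene. The methods derive isoform abundances with DeepShape-prime and gene-level counts with tximport, but whether the deposited table comes from them is not given in the sources used here.

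Genes with at least 32 counts summed over a stage were kept (13484 of 22373). Libraries were scaled by TMM and fitted with limma-voom (limma 3.58.1, edgeR 4.0.16, R 4.3.3) over all 10 libraries with 1 coefficient per stage. The contrast was P0 minus E15.5, two-sided, with Benjamini-Hochberg adjustment. A called gene had an adjusted p below 0.05 together with a change of 1.25-fold or more. The E12.5 and E14 libraries entered through the shared spread, the scaling and the filter: 565 genes were kept only through E12.5, E14 or E17. DESeq2 1.42.0 and edgeR's quasi-likelihood test were alternatives. The scripts were tested on simulated data. Precision at P0 is limited by the 7544404 counts of replicate 1 and by the spread between its 2 libraries.

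Named genes were the 10 largest called rises and falls with a mean of at least 100 counts and groups that did not overlap, the 5 largest gains and losses in CPM, the 5 step differences in each direction with the strongest test, the extremes of each list, gene pairs and fixed examples. The members and lists were chosen with earlier results of these data known. Genes added for their role in a paragraph (such as Egr1, Prc1, Ube2c, Mcm5, Pola1 and Slc17a6) and the lists of intestinal and endoplasmic reticulum genes were chosen after values were seen, as was the count over 3 fits. Promoter sequences are RefSeq's on GRCm38.p6. A few named genes are not reported here. Protein sequences and mRNA levels were not used here.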

Additional observations from a re-analysis of the deposited data

Results flagged for a closer look

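The list of 24 genes of the intestinal epithelium and exocrine pancreas, which was high in P0 replicate 2, was also high in a library outside the comparison. It summed to 151 CPM (2752 counts) in E12.5 replicate 1 and to 0.823 CPM in E12.5 replicate 2, and to 0.574 and 1.20 CPM in the E14 libraries. Of the 179 genes found mainly in P0 replicate 2, 146 were also at least 10 times higher in E12.5 replicate 1 than in E12.5 replicate 2.

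The later step of the span, from E17 to P0, differed from the earlier step by the test of the difference itself for 343 genes (limma-voom, adjusted p under 0.05). Of the 317 genes with a more negative later step, 166 were not called over the whole span, 112 were called lower and 39 higher. These counts changed widely between fits, as described for the alternatives.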

How the results depend on the processing

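The 4587 calls (2300 higher, 2287 lower) stayed within 1.5 times under edgeR (4518), DESeq2 (4026), another scaling (4536), no histone genes (4522), other filters (4658 and 4599) and the 3 later stages alone (3376). Quality weights gave 2621 (1522 higher, 1099 lower), the 4 libraries alone 1657 (916 and 741) and calls in all 3 fits 1448 (863 and 585). Scaling by total counts gave 1494 lower, and 68.1% of calls were higher against 50.1% with TMM. Leaving out each library in turn gave 2236 to 5865 calls (1085 to 3034 higher, 1151 to 2831 lower), with 2236 when E15.5 replicate 1 was left out and 2630 for replicate 2. The 343 step differences became 0 in the 3 later stages alone, 208 under total counts and 0 to 1967 with a library left out (50 without either E12.5 library, 114 and 112 without an E14 library, 1 without either E15.5 library, 0 without either E17 library, for which 1265 and 1826 genes had an unadjusted p under 0.05 by limma-voom). The replicate block gave 4088 calls and 10 step differences. With the block, the calls of Gria2, Grin2a and Grik3 were lost. No label says that a number marks a shared litter or day. Replicate differences correlated with those of E15.5 at 0.43 in P0, 0.24 in E17 and 0.23 in E14 but -0.35 in E12.5, so pairing was not taken as given; for the 2 stages compared it cannot be told from these values.

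Medians changed sign for endothelial genes with a library left out (-0.38 to 0.25, the latter without P0 replicate 2), and under total counts for large-subunit ribosomal genes (0.043) and initiation factors (0.019). The median of meningeal genes also changed sign under total counts, from -0.074 to 0.088. Fitted changes of genes that were not called changed sign with a library left out for Hes5 (-0.12 to 0.81), Dcx (-0.43 to 0.099), Kcnj13 (-3.50 to 0.26) and Actl6b (-0.086 to 0.31), and for Dcx under total counts (0.0066). The cause was not tested. Among 142 named genes, 36 lost their call in the 4 libraries alone, 17 with quality weights and 3 with edgeR.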

Other observations

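Genes of protein folding and export in the endoplasmic reticulum, a list of 35 written after the data were seen, were called lower in 8 members (17% of all genes were) and higher in none, with a median of -0.18. Without P0 replicate 2, 8 were lower and 3 higher. The list median was 0.46 from E15.5 to E17 and -0.67 from E17 to P0. The step difference was called negative for 13 members, against 2.35% of all genes tested. Genes of cholesterol synthesis had medians of 0.50 and -0.39 for the same steps, with 7 members called negative. Calls of step differences numbered 0 in the fit of the E15.5, E17 and P0 libraries alone. Because the endoplasmic reticulum list followed the data, its counts are a description and not a test. In the histone family, 62 of 66 tested genes were called lower, against 17% of all genes tested. Near-identical copies can share reads, so these are not 62 separate measurements.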
